A study of Homo sapiens with 3 samples.

Results

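The genes described here are 10 heat shock chaperone genes, chosen by name: HSP90AA1, HSP90AB1, HSPA8, HSPA1A, HSPA1B, HSPA5, HSPH1, DNAJB1, HSPD1 and HSPE1. All 10 were among the 26485 gene names of the count tables. The samples were 3 RNA sequencing libraries made from HEK293, a human embryonic kidney line transformed with adenovirus DNA, kept in DMEM with fetal calf serum and given no treatment or genetic change that the labels name. They formed 1 group with n = 3, so no contrast between conditions existed, and nothing in the labels says that the replicates were separate cultures. The questions were how many counts each chaperone gene received, how members of a pair compared, and whether the spread over replicates exceeded counting noise. Ribosomal RNA was depleted and the library kit keeps strand, but the sources used here do not give the counter's strand option. Values below are therefore counts under a gene's name, which can hold reads of the other strand, and an order of genes by these counts is not an order of their expression.

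Chaperones bind unfolded or partly folded proteins and keep them from aggregating. HSP70 proteins bind short exposed stretches in a cycle of ATP hydrolysis that J-domain proteins such as DNAJB1 start and nucleotide exchange factors such as HSPH1 reset, and HSP90 proteins act later, on clients such as kinases and steroid receptors. HSPD1 and HSPE1 form the folding chamber of the mitochondrial matrix and its lid. Many of these genes are switched on by heat shock factor 1, which binds heat shock elements, while HSP90AB1 and HSPA8 are known for high constitutive levels in dividing cells and HSPA5 answers to unfolded protein in the endoplasmic reticulum.

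Heat shock elements near the start sites are shown because they are the regulatory sequence that the family is known by. The RefSeq promoter table (GRCh38.p14) held 16 promoters of the 10 genes, each from 250 bases before a start to 50 after it. A complete element of 3 alternating units, spelled GAANNTTCNNGAA on one strand and TTCNNGAANNTTC on the other, lay in a promoter of HSP90AA1, HSP90AB1, HSPA8 and HSPD1, which is 4 of 10 genes, against 0.608% of the 27305 genes in the table. Matches are a description of the letters and not evidence of binding. In the lines that follow, capitals mark the complete elements.
HSP90AA1, chr14:102087112-102087140, minus strand: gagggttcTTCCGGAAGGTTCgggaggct
HSP90AB1, chr6:44247770-44247798, plus strand: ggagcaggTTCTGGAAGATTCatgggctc
HSP90AB1, chr6:44247823-44247851, plus strand: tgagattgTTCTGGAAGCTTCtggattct
HSPA8, chr11:123062346-123062374, minus strand: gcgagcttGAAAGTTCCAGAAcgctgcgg
HSPA8, chr11:123062171-123062199, minus strand: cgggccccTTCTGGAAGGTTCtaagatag
HSPD1, chr2:197500063-197500090, minus strand: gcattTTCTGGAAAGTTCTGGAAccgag
The HSPD1 stretch holds 2 overlapping complete elements in 18 bases, which begin 245 bases before the more downstream of the 2 HSPD1 starts. Elements of HSP90AA1 and HSPA8 began 88 and 55 bases before a start, with a further HSPA8 element at 230, and those of HSP90AB1 began 165 and 112 bases before the most downstream of its 3 starts. A shorter element of 2 units, spelled GAANNTTC or TTCNNGAA, which each complete element also contains, was found in 7 of 10 genes, against 16.2% of all genes, and added HSPA1A, HSPA1B and DNAJB1. HSPA5 held the endoplasmic reticulum stress element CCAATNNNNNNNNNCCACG (other strand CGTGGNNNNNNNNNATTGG), 66 bases before its start, as did 0.0916% of all genes. The windows of HSPH1 and HSPE1 held none of these letters.

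Few reads were assigned to any gene, and this set the precision of every value. Records in no annotated feature were 90.6%, 91.5% and 91.4% of all records in replicates 1, 2 and 3. Gene-assigned totals ran from 289241 to 483114 per library, or 1.76% to 2.48% of all records. By counting error alone, a count of 0 allows up to about 3 counts. These equalled 6.86, 6.92 and 9.89 CPM (counts per 1000000 of library size) in replicates 1, 2 and 3. Replicate 2 stood apart. TSIX took 28.5% of its gene-assigned counts, against 17.9% in replicate 1 and 17.1% in replicate 3, and where leaving it out ends a call or moves a mean by over 1.5 times, the value without it is given. Of 8 HEK293 line markers, 7 had a count and 5 had one in every library, with PAX2 at 0 throughout. Among all names, 54.7% had a count and 29.2% had one in every library. The summed level of the 8 markers was 254 to 295 CPM. All 4 fibroblast markers were at 0, as were 3 of 4 blood markers (not LYZ, at 26.4 to 52.6 CPM) and 3 of 4 liver markers (not FGB, at 0 to 16.0 CPM). At this depth 12003 of all 26485 names had no count, so a marker at 0 says little about cell type.

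The 10 chaperone genes together received 316, 258 and 283 counts in replicates 1, 2 and 3, or 0.0760% ± 0.0222 of gene-assigned counts (SD, n = 3). HSP90AA1 held most of them, with 57.3%, 69.0% and 55.1% of the sum in the same order. The other 9 genes shared 135, 80 and 127 counts. A count in every library was found for 7 of the 10 genes, where 29.2% of all names had one, and HSP90AA1, HSPA8 and HSPD1, or 3 of 10, had 10 counts or more in each library, where 9.68% of all names did. HSPA1A and DNAJB1 received no count in any library.

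**Figure D1:**
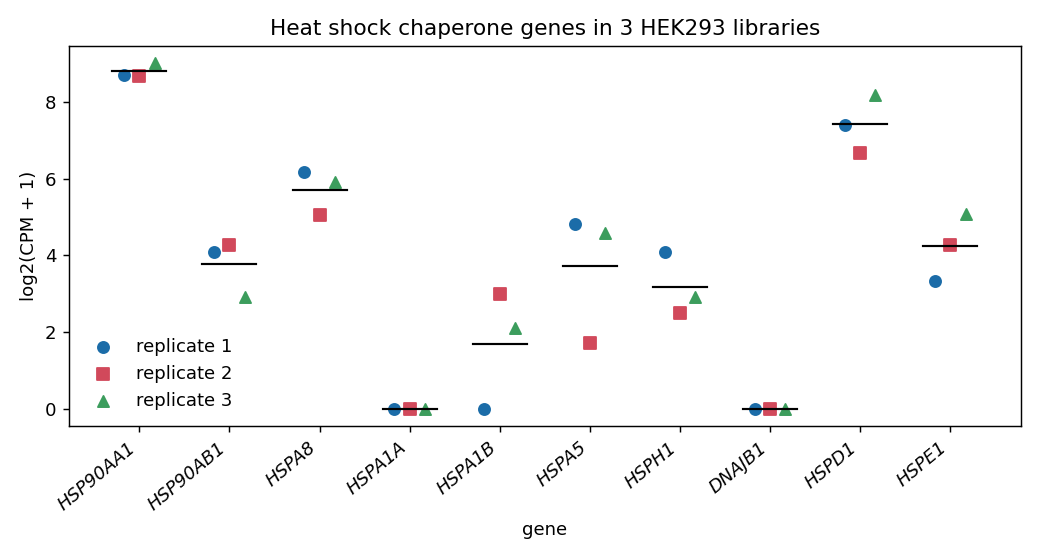
Level of each heat shock chaperone gene as log2(CPM + 1) on the vertical axis, with 1 point per replicate and a black line at the mean of the 3 points. HSP90AA1, at 410 to 514 CPM, and HSPD1, at 101 to 287 CPM, lie above the other genes, and HSPA1A and DNAJB1 lie at 0.

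Among the cytosolic HSP90 genes, the counts lay almost entirely under the stress-inducible gene. HSP90AA1 (chromosome 14, 102080738 to 102139699, minus strand, GRCh38) had 181, 178 and 156 counts in replicates 1, 2 and 3, equal to 414, 410 and 514 CPM, or 446 ± 59.0 CPM (SD, n = 3). HSP90AB1, its constitutive relative (chromosome 6, 44246166 to 44253888, plus strand), had 7, 8 and 2 counts, equal to 16.0, 18.4 and 6.59 CPM, or 13.7 ± 6.26 CPM (SD, n = 3). The counts of these HSP90 genes did not come close to each other in any library.

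HSP90AA1 took 96.3% of the pair's counts in replicate 1 (95% Wilson interval 92.5% to 98.2%), 95.7% in replicate 2 (91.7% to 97.8%) and 98.7% in replicate 3 (95.5% to 99.7%). These intervals, like those below, cover counting error only. Per kilobase of merged exons, the log2 ratio of HSP90AA1 to HSP90AB1 was 3.83, 3.62 and 5.36, with a mean of 4.27 ± 0.95 (SD, n = 3), or 19.3-fold. Without length scaling the mean log2 ratio was 5.09. It was positive in 3 of 3 libraries, and a two-sided exact permutation test by sign flips gave p = 0.25, the smallest that 3 libraries allow. The 2 coding sequences were identical at 76.0% of 2175 aligned bases, and their longest shared run was 23 bases, gcctttcaggcagaaattgccca. Annotated retrocopies were closer. Of 50-base windows of the longest transcript, 82.5% in HSP90AA1 and 81.2% in HSP90AB1 occurred in no other annotated gene, and the pseudogenes HSP90AA2P and HSP90AB3P shared the most windows with each in turn. The pseudogene HSP90AB4P, picked after its counts were seen, had 6, 2 and 1 counts.

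The genes with the level pattern nearest to HSP90AA1 over the 3 libraries, by Euclidean distance of log2 CPM among 2563 candidates, were SSB, RBM12B-AS1 and FANCI. SSB, which encodes the La RNA-binding protein, had 193, 184 and 155 counts at a distance of 0.105. RBM12B-AS1 had 174, 162 and 151 counts at 0.155, and FANCI, a Fanconi anemia DNA repair gene, had 200, 177 and 144 counts at 0.185. Exons of each overlapped exons of a gene on the other strand, by 572 bp with METTL5 for SSB, 90 bp with RBM12B for RBM12B-AS1 and 458 bp with POLG for FANCI. Such an overlap was found for 70.6% of the 2325 matched names with 10 counts or more in each library. For HSP90AA1 this overlap was 197 bp of its 5248 bp of merged exons, shared with WDR20, which had 0, 2 and 5 counts.

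The HSP70 genes were led by HSPA8, the constitutive cytosolic HSP70 (chromosome 11, 123057489 to 123063230, minus strand). HSPA8 had 31, 14 and 18 counts in replicates 1, 2 and 3, equal to 70.9, 32.3 and 59.3 CPM, or 54.2 ± 19.8 CPM (SD, n = 3). HSPA5, the HSP70 of the endoplasmic reticulum also called BiP (chromosome 9, 125234853 to 125241330, minus strand), had 12, 1 and 7 counts, equal to 27.4, 2.31 and 23.1 CPM, or 17.6 ± 13.4 CPM (SD, n = 3). Replicate 2 was the lowest library for both, and for HSPA5 it held a lone count. Without replicate 2 the mean of HSPA5 was 26.6 CPM.

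HSPA8 took 72.1% of the counts of HSPA8 and HSPA5 in replicate 1 (95% Wilson interval 57.3% to 83.3%), 93.3% in replicate 2 (70.2% to 98.8%) and 72.0% in replicate 3 (52.4% to 85.7%). The 3 intervals overlap. Per kilobase of merged exons the log2 ratio of HSPA8 to HSPA5 was 1.04, 3.24 and 1.03, with a mean of 1.77 ± 1.27 (SD, n = 3), and 1.04 without replicate 2. The mean log2 ratio was 2.75 per kilobase of the longest transcript and 2.85 per unique window. It was positive in 3 of 3 libraries (two-sided exact permutation test, p = 0.25). No exon of another gene lay opposite the exons of either gene. AL354710.2, which starts 333 bp from HSPA5 on the other strand, was not analysed here. HSPA8 shared 50-base windows with 11 other annotated genes, the pseudogene HSPA8P1 first, and 84.6% of its windows were in none of them. For HSPA5 that share was 90.4%.

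The stress-inducible HSP70 genes HSPA1A and HSPA1B lie close together on the plus strand of chromosome 6, at 31815464 to 31817946 and 31827735 to 31830255. HSPA1A had 0 counts in every library, and HSPA1B had 0, 3 and 1 counts, equal to 0, 6.92 and 3.30 CPM, at or below the 3-count level. The mean of HSPA1B was 3.4 CPM, and 1.74 CPM without replicate 2. HSPA1L, which starts 399 bp from HSPA1A on the other strand, also had 0 counts in all 3. No ratio of HSPA1A to HSPA1B was formed from these counts.

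Most of the sequence of HSPA1A and HSPA1B is common to both. Their coding sequences, 1926 bases each, differed at 4 bases, all at the third position of a codon, and the first 1709 bases were identical. Of 50-base windows, 27.4% in HSPA1A and 28.6% in HSPA1B occurred in no other annotated gene, and 1766 windows were common to both. The stretch from coding base 1846 to 1905, where the differences were densest, is shown to give the scale of what separates the genes, with the differing bases in capitals (GENCODE 29 transcripts).
HSPA1A: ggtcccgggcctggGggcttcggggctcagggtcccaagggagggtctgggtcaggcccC
HSPA1B: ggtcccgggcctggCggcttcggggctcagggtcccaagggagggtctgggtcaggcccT
Records aligned to more than 1 place, 6.0% to 7.51% of all records per library, were listed apart from genes in the tables. The part of this in the low counts of HSPA1A and HSPA1B was not tested.

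**Figure D2:**
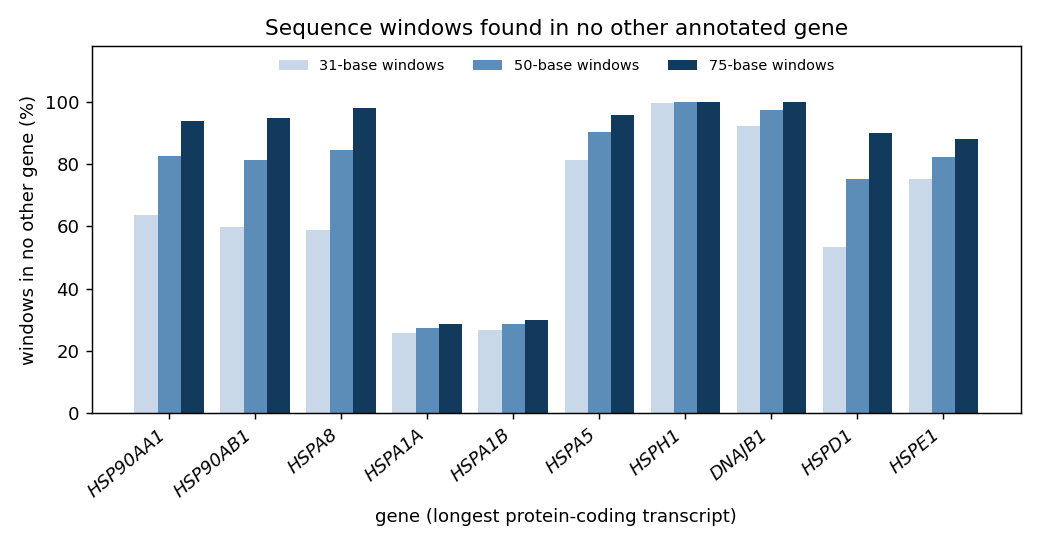
Percent of sequence windows in the longest protein-coding transcript of each chaperone gene that occur in no other annotated gene, for windows of 31, 50 and 75 bases. HSPA1A and HSPA1B stay under 30% at every window length, while DNAJB1 and HSPH1 reach 97.4% and 100% at 50 bases.

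The HSP70 partners DNAJB1 and HSPH1 had few or no counts, and their sequence is nearly unique. DNAJB1, the heat-inducible J-domain protein (chromosome 19, 14514770 to 14529770, minus strand), had 0 counts in every library, with 97.4% of its 50-base windows in no other gene. TECR, a fatty acid elongation gene on the other strand that shares 211 bp of exon with DNAJB1, had 7, 3 and 6 counts, and the microRNA gene MIR639, which shares 98 bp, had 0 in all 3. HSPH1, the HSP110 nucleotide exchange factor (chromosome 13, 31134974 to 31162388, minus strand), had 7, 2 and 2 counts, equal to 16.0, 4.61 and 6.59 CPM, or 9.07 ± 6.09 CPM (SD, n = 3). Replicate 1 was its highest library, and without it the mean of HSPH1 was 5.44 CPM. All of its 50-base windows were unique to it, and no exon lay opposite. For counts under the name DNAJB1, the 3-count level was 6.86, 6.92 and 9.89 CPM in replicates 1, 2 and 3, a limit that covers counting error only.

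The mitochondrial chaperonin genes HSPD1 and HSPE1 start from a common stretch of chromosome 2 in opposite directions. HSPD1 (HSP60, the chamber) is annotated from 197486581 to 197516737 on the minus strand and HSPE1 (HSP10, the lid) from 197499994 to 197503457 on the plus strand, so HSPE1 lies inside the annotated span of HSPD1. In RefSeq the upstream start of HSPD1 and the start of HSPE1 are 105 bp apart. The 104 bases between them, chr2:197500275-197500378 on the plus strand, are shown because both genes are read outward from them.
HSPD1-HSPE1: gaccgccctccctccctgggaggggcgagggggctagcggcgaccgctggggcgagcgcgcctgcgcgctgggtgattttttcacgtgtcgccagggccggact
This stretch had 74.0% G and C and 13 CpG sites, and held neither the CCAAT box, nor a TATA box spelled TATAAA, nor the shorter heat shock element, on either strand. The pair of overlapping heat shock elements printed above lies to the left of it, its far edge 311 bp from the HSPE1 start. That edge lies 206 bp downstream of the upstream HSPD1 start, so among HSPD1 starts the pair is upstream only of the other. The pair is also upstream of the HSPE1 start, but it lies outside the promoter window searched for HSPE1. Exons of HSPD1 and HSPE1 shared 281 bp, from 197499994 to 197500274, which 4 of 14 HSPD1 transcripts and 2 of 7 HSPE1 transcripts cover.

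**Figure D3:**
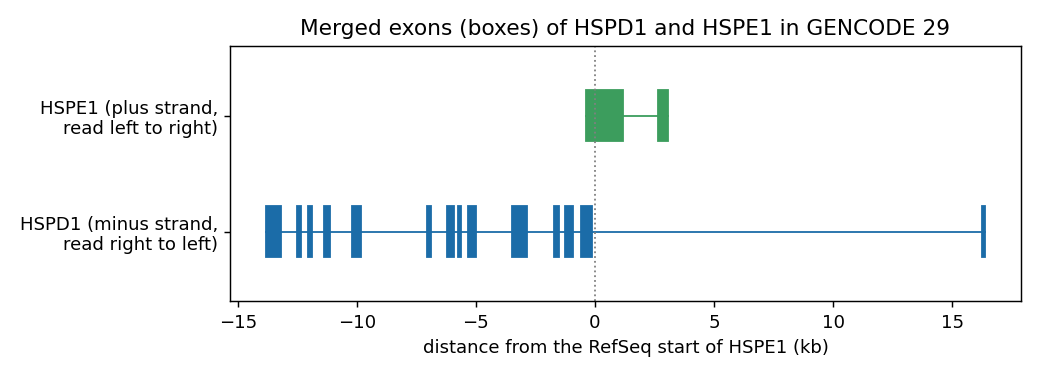
Merged exons of HSPE1 (upper) and HSPD1 (lower) in GENCODE 29, drawn to scale as distance in kb from the RefSeq start of HSPE1 (dotted line). HSPE1 runs to the right and most HSPD1 exons lie to the left, with 1 upstream HSPD1 exon beyond the far end of HSPE1.

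Counts at this locus lay mostly under HSPD1. HSPD1 had 74, 44 and 87 counts in replicates 1, 2 and 3, equal to 169, 101 and 287 CPM, or 186 ± 93.8 CPM (SD, n = 3). HSPE1 had 4, 8 and 10 counts, equal to 9.14, 18.4 and 33.0 CPM, or 20.2 ± 12.0 CPM (SD, n = 3). Replicate 3 was the highest for each, while the lowest was replicate 2 for HSPD1 and replicate 1 for HSPE1.

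HSPD1 took 94.9% of the pair's counts in replicate 1 (95% Wilson interval 87.5% to 98.0%), 84.6% in replicate 2 (72.5% to 92.0%) and 89.7% in replicate 3 (82.1% to 94.3%). Per kilobase of merged exons the log2 ratio of HSPD1 to HSPE1 was 3.03, 1.33 and 2.00, with a mean of 2.12 ± 0.86 (SD, n = 3), or 4.35-fold, and without length scaling it was 3.22. HSPD1 was higher in 3 of 3 libraries (two-sided exact permutation test, p = 0.25). The readthrough gene HSPE1-MOB4 had no count and MOB4 had 1, 0 and 0. HSPD1 shared 50-base windows with 10 other annotated genes and HSPE1 with 9, and 75.2% of HSPD1 windows and 82.2% of HSPE1 windows were in none. The part that the 281 bp of opposite exon or the retrocopies play in these counts was not tested.

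**Figure D4:**
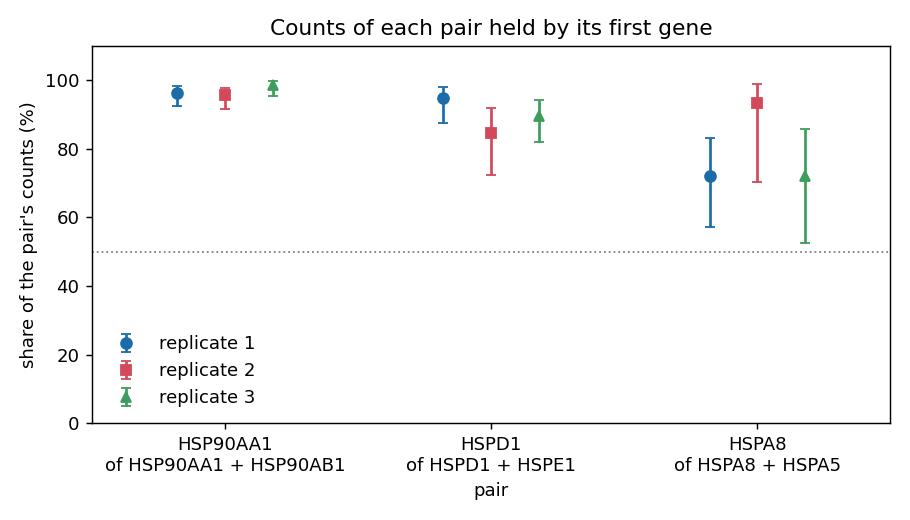
Share of each pair's counts held by its first gene, in percent, by replicate, with 95% Wilson intervals for counting error and a dotted line at 50%. All 9 points lie above 50%, from 72.0% for HSPA8 in replicate 3 to 98.7% for HSP90AA1 in replicate 3.

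Scaled by merged exon length, HSP90AA1 and HSPD1 stood above the other genes with a count in every library. HSP90AA1 averaged 85.0 ± 11.2 CPM per kilobase and ranged from 78.2 to 98.0, and HSPD1 averaged 43.8 ± 22.1 and ranged from 23.9 to 67.5 (SD, n = 3 each), with no overlap between them. HSPA8 averaged 11.2 ± 4.09 CPM per kilobase, ranged from 6.66 to 14.6 and did not overlap with HSPD1 (SD, n = 3). Below it each neighbour in the order overlapped the next: HSPE1 at 10.2 ± 6.07 CPM per kilobase, HSP90AB1 at 4.59 ± 2.10, HSPA5 at 4.50 ± 3.44, HSPA1B at 1.35 ± 1.37 and HSPH1 at 1.08 ± 0.725 (SD, n = 3 each). The median of matched names with a count was 1.78 CPM per kilobase. HSP90AA1 lay at percentile 96.8 and HSPD1 at 94.0 of these names, while HSPA1B and HSPH1 lay at 43.3 and 37.8.

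**Figure D5:**
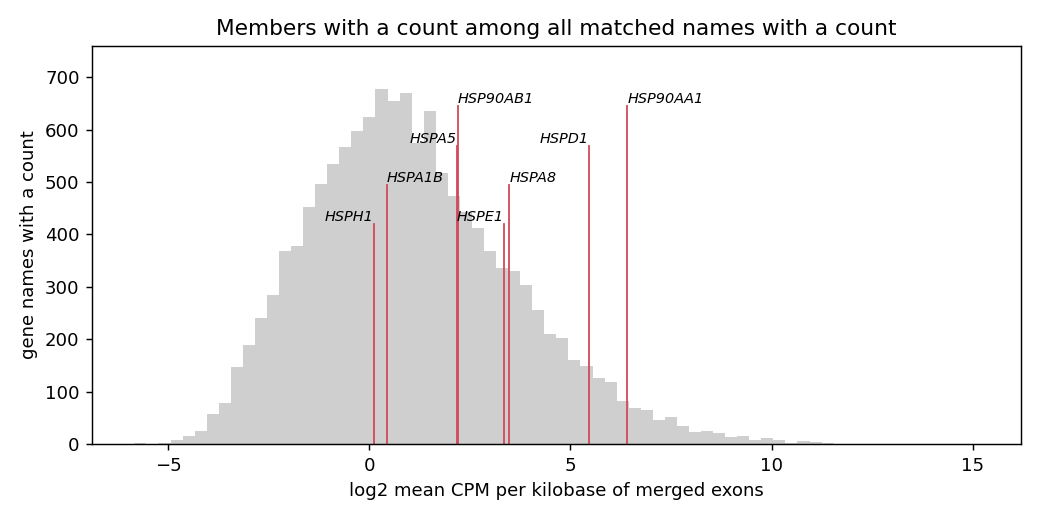
Distribution of log2 mean CPM per kilobase of merged exons over matched gene names with a count (grey bars, number of names), with the 8 chaperone genes that had a count as red lines whose height carries no value. HSP90AA1, at 85.0 CPM per kilobase, lies in the right tail and HSPH1, at 1.08, left of the centre.

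Exons of another gene lay opposite exons of 4 of the 10 chaperone genes (HSP90AA1, DNAJB1, HSPD1 and HSPE1), where 31.6% of the 23900 matched names had such an overlap. Over all matched names, 21.7% of those with an opposite exon and 4.18% of those without had 10 counts or more in each library. HSP90AA1 and HSPD1 belong to the first group and HSPA8 to the second. With exons of protein-coding transcripts alone, HSP90AA1 had no opposite exon, while HSPD1 kept its overlap. The shared stretch was 3.75% of the exons of HSP90AA1 and 6.62% of those of HSPD1, and its part in their counts was not tested.

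Of the 3 chaperone genes that had 10 or more counts in each library and so were tested for a spread beyond counting noise, HSPD1 alone passed. That is 1 of 3, where 45.8% of all 2564 genes tested did (edgeR Poisson fit, Benjamini-Hochberg adjusted p under 0.05). HSPD1 had an adjusted p of 4.45e-07 in that edgeR fit, with its highest library 2.83 times its lowest. Without replicate 2 the edgeR adjusted p of HSPD1 was 0.015, and without replicate 3 it was 0.0501, just over the threshold. With DESeq2 dispersions in place of a Poisson null, the adjusted p of HSPD1 was 0.999 and 0 of all genes passed, with 19 at an unadjusted p under 0.05. Those dispersions were estimated from the same libraries that they test, so that setting cannot decide whether HSPD1 varied. With no count filter, HSPA5 also passed (edgeR adjusted p of 0.021), where 20.1% of all genes did. HSPA8 and HSP90AA1 had edgeR adjusted p-values of 0.0715 and 0.133, and with library sizes from total gene-assigned counts in place of TMM factors these were 0.0167 and 0.00789. HSP90AA1, with a highest library 1.25 times its lowest, varied least of the 8 genes with a count, with a coefficient of variation of 13.2% against 36.6% to 102% for the others, which are also the genes with fewer counts. Replicate 2 was the lowest library for all 3 tested genes, as it was for 36.8% of all genes tested.

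The other genes of the chaperone system, 61 names in 7 lists of relatives and partners, had 50 names with a count and 12 with at least 10 counts in every library. The median of their mean levels was 8.43 CPM, against 15.6 CPM for the 10 chaperone genes and 1.10 CPM for all names. Of the 12, 7 passed the edgeR test for variation, where 45.8% of all tested genes did. That number was 4 of 12 without replicate 1, 1 of 12 without replicate 2 and 7 of 12 without replicate 3, where 28.9%, 9.45% and 34.3% of all tested genes passed. Exons of 8 of the 12 overlapped an exon on the other strand, where exons of 70.6% of matched names with 10 counts or more in each library did.

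The HSP90 cochaperones had the most testable members, 5 of 10, where 9.68% of all names had 10 counts or more in each library. STIP1, the adaptor that links HSP70 to HSP90 (also called HOP), had 133, 34 and 62 counts, or 196 ± 113 CPM (SD, n = 3), lowest in replicate 2. It was the only 1 of the 5 to pass (edgeR adjusted p of 8.99e-13), where 45.8% of all tested genes did. Without replicate 2 the edgeR adjusted p of STIP1 was 0.0719. CHORDC1 had 39, 38 and 27 counts and FKBP4, a peptidyl-prolyl isomerase of steroid receptor complexes, had 32, 26 and 24, and neither passed (edgeR adjusted p of 0.997 and 0.66). No exon lay opposite STIP1.

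Among the HSP70 cochaperones, 3 of 10 had 10 counts or more in each library, where 9.68% of all names did, and these 3 passed the test, where 45.8% of all tested genes did. STUB1, the ubiquitin ligase CHIP, had 294, 192 and 139 counts, or 524 ± 128 CPM (SD, n = 3), above HSP90AA1 in the mean. It lay above HSP90AA1 in replicates 1 and 2 and below it in replicate 3, at 458 against 514 CPM. Without replicate 1 the means were 437 CPM for STUB1 and 449 CPM for HSP90AA1. The edgeR adjusted p of STUB1 was 2.65e-05, and 0.844 without replicate 1. Of its 2316 bp of exons, 983 bp lay opposite JMJD8, which had 1335, 816 and 1124 counts. BAG4 had 29, 60 and 24 counts and BAG2 had 12, 42 and 10, highest in replicate 2 (edgeR adjusted p of 0.00604 and 0.000114). Without replicate 2 these edgeR adjusted p-values were 0.755 for BAG4 and 0.843 for BAG2, whose mean was then 31.9 CPM, against 52.4 CPM with it. Without replicate 1 that of BAG4 was 0.0567. BAG2 shared 2842 bp of exon with RAB23, which had 182, 283 and 120 counts.

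Of 16 other J-domain genes, 3 were tested, where 9.68% of all names were. These 3 passed, where 45.8% of all tested genes did, each highest in replicate 2. DNAJC3, a cochaperone of the endoplasmic reticulum, had 54, 79 and 30 counts, DNAJB14 had 35, 64 and 36, and DNAJA4 had 30, 66 and 21 (edgeR adjusted p of 0.0184, 0.0286 and 0.000533). None of the 3 passed without replicate 2, with edgeR adjusted p-values of 0.607 for DNAJC3, 0.308 for DNAJB14 and 0.989 for DNAJA4. Without replicate 1 that of DNAJB14 was 0.467. HSP90B1, the endoplasmic reticulum HSP90 also called GRP94, had 13, 20 and 22 counts and did not pass (edgeR adjusted p of 0.0682), and TRAP1, the mitochondrial HSP90, had 4, 5 and 6. None of the 11 other HSP70 genes reached 10 counts in every library, where 9.68% of all names did. The highest were HSPA4 with 9, 12 and 18 counts, HSPA4L with 10, 21 and 6 and HSPA14 with 14, 9 and 10.

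None of the genes listed as small heat shock proteins or heat shock factors reached 10 counts in every library, where 9.68% of all names did. Of 8 small heat shock protein genes 5 had no count, HSPB1 among them, where 12003 of all 26485 names had none. None of the 8 had a count in every library, where 29.2% of all names did. HSPB6 led with 15, 0 and 10 counts, followed by HSPB7 with 0, 7 and 0 and CRYAB with 0, 1 and 0. HSF2 had 5, 4 and 2 counts, and HSF1, the main regulator of the heat shock response, had 0, 2 and 3. HSBP1, which encodes a heat shock factor binding protein and was listed with them, had 2, 4 and 0.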

How the data were processed

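The authors deposited raw whole-number counts per gene name for each of the 3 libraries, with 5 summary lines that entered neither library sizes nor tests and held 97.5% to 98.2% of all records. TRIzol-extracted RNA went through Ribo-Zero depletion and the NEBNext Ultra Directional kit, per the labels' protocols. Per the submitters' processing notes Trimmomatic, TopHat2 (listed as 2.2.5) and HTSeq 0.11.2 were used on hg38. The annotation, strand option and read length are not given there.

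CPM used TMM library sizes (edgeR 4.0.16, R 4.3.3; DESeq2 1.42.0 for alternatives). Genes with 10 or more counts in each library were tested with an intercept at a dispersion of 0, deviance against chi-square with 2 degrees of freedom, adjusted by Benjamini and Hochberg's method over all of them. Such p-values measure the spread between these samples, which may be technical. Log2 ratios used a prior of 0.5 CPM. Exons of all transcripts were merged from GENCODE 29 (GRCh38), to which 23900 of 26485 names matched; it stands in for the authors' annotation. No genome was used here, so windows were searched, on both strands, in annotated transcripts outside the gene's own locus. Coding sequences were the longest open frames, aligned with Biopython 1.88.

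The named genes were the 10 members, opposite-strand genes that overlap them or start within 5000 bp, the 3 highest of each list and the 3 nearest to HSP90AA1. Others are marked as picked later or were named as overlap partners. Members and lists were chosen with earlier results of these data known. Alternatives were DESeq2 size factors, total counts, TSIX left out, no count filter, a Pearson statistic, DESeq2 dispersions, other priors, lengths and windows, coding exons alone and each replicate left out; lengths by unique window were added after seeing the data.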

Additional observations from a re-analysis of the deposited data

How the results depend on the processing

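Of the 39 recomputed values that answer a comparison, 31 stayed on the same side or within the spread. Without each replicate in turn, the number of chaperone genes called variable ran from 0 to 1, the 0 without replicate 3 (edgeR), where HSPD1 had an adjusted p of 0.0501 and 1324 of all genes had an unadjusted p under 0.05. That number was 3 with total gene-assigned counts, 2 with no count filter (HSPA5 joined HSPD1, adjusted p of 0.021, with 20.1% of 14482 genes called) and 0 with DESeq2 dispersions. Under the last, HSPD1 had an adjusted p of 0.999 and 0 genes passed, with 19 at an unadjusted p under 0.05 and none of the chaperone genes among them. That null takes its spread from the same libraries it tests. Over all genes, 263 were called without replicate 2, 2914 with no count filter and 1175 as reported. The summed level of 750 CPM was 954 CPM with TSIX left out, which moved the median of all genes by 0.35 on the log2 scale. The log2 ratio of HSPD1 to HSPE1 was 3.22 with no length scaling, against 2.12. The median share of unique windows was 61.8% at 31 bases and 94.3% at 75 bases. The ratio of HSPA8 to HSPA5 was 2.75 per kilobase of the longest transcript and 2.85 per unique window, against 1.77. No paired analysis was possible because the libraries form 1 group. Ratios per unique window of the genome were not run, and HSPA1A and HSPA1B gave no ratio. The small number of gene-assigned counts limits every value given for the chaperone genes.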
